A study of Mus musculus with 18 samples.

Results

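Described here are 8 transcription factors: Pax8, Pax2, Lhx1, Emx2, Gata3 and Gata2 of the embryonic Wolffian duct, and the signal-responsive Runx1 and Cebpb. They were taken by gene symbol from a table of 24346 genes, and all 8 were among the 17302 genes tested, those with at least 0.1 FPKM (fragments per kilobase of transcript scaled to the mapped fragments of the library, a level per transcript length) in at least 3 libraries. The table holds RNA-seq of mouse IS-caput epididymis, the initial segment dissected together with the caput, in 6 groups of 3 libraries. The 12-week-old wild-type groups were sham-operated control, bilateral orchidectomy (bilateral OD), and the ipsilateral and contralateral sides after unilateral orchidectomy (unilateral OD); the study's methods give B6D1F1 males operated at 8 weeks of age and sampled 4 weeks later, and take the contralateral side from the same mice as the ipsilateral side. The remaining groups were untreated wild-type (WT) and Nell2-/- mice of 14 weeks. Bilateral OD removes both the endocrine and the lumicrine (luminal fluid) input from the testes. Unilateral OD removes the lumicrine input of the operated side and leaves the other testis in place. Nell2-/- mice keep their testes but lack the lumicrine ligand NELL2 in every tissue and throughout life, so that loss of the ligand and altered postnatal development of the duct cannot be told apart. The WT and Nell2-/- libraries come from an earlier experiment, and levels that differ between them and the OD groups cannot be told apart from that.

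The Wolffian duct forms as an epithelial tube in the embryo and, under androgen, becomes the epididymis, vas deferens and seminal vesicle. PAX2 and PAX8, paired-domain factors, specify the duct together with the LIM-homeodomain factor LHX1, EMX2 is a homeodomain factor needed to keep the duct and the ureteric bud epithelium, and GATA3 and GATA2 are zinc-finger factors acting in duct guidance and in urogenital development. The adult initial segment adds another layer of control, in which luminal ligands act through receptor tyrosine kinases such as ROS1 on downstream factors. RUNX1, a runt-domain factor, and CEBPB, a leucine-zipper factor best known from inflammation, adipogenesis and the female reproductive tract, are signal-responsive in many cell types. The question was whether the epithelial identity carried by the duct factors persisted once the testicular input was lost.

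The libraries matched their tissue and orchidectomy labels in the genes that could test them. The 12 epididymal secretory genes summed to 97200.8 to 97710.7 FPKM in the sham-operated libraries and to 3599.73 to 4074.93 FPKM after bilateral OD. In the other groups they summed to between 46841.1 and 83560.2 FPKM. The 7 late germ cell transcripts, a readout of sperm in the lumen, summed to 75.6 to 90.4 FPKM in the sham-operated and to at most 0.419 FPKM in the bilateral OD libraries. Their sum was 62.8 to 89.3 FPKM on the contralateral and 2.38 to 5.26 FPKM on the ipsilateral side, and 160 to 253 FPKM in WT and 235 to 266 FPKM in Nell2-/- mice. Nell2 itself, a gene of the germ cells, was at most 0.369 FPKM in every library, so it could not check the genotype. The FPKM of all genes summed to 777753.4 to 825865.8 per library in the sham-operated group and to 528663.6 to 564806.2 after bilateral OD, and 720007.7 to 724780.4 on the contralateral side, 658260.7 to 689090.0 on the ipsilateral side, 698501.2 to 729074.0 in WT and 650658.0 to 702689.3 in Nell2-/- mice. Rescaling each library to the same sum (TPM) therefore moved the median log2 fold change of all genes after bilateral OD by 0.54, and scaling by the 22 epithelial genes moved it by -0.42. The epithelial scaling subtracts the mean log2 level of those genes, while their median log2 fold change was only 0.14. Its size thus depends on taking the mean. Relative to the median of all genes, the log2 fold change after bilateral OD was, as deposited and under TPM scaling, 0.38 and 0.42 for Pax8, 1.37 and 1.41 for Pax2, 1.30 and 1.34 for Lhx1 and 1.08 and 1.11 for Emx2. It was 0.71 and 0.75 for Gata3, 0.59 and 0.62 for Gata2, -2.01 and -1.99 for Runx1 and -0.83 and -0.80 for Cebpb. Subtracting that median takes out a shift shared by all genes. Both values of each factor are therefore close by construction and cannot show whether its change holds under another scaling. The tissue is a mixture of cell types, so that fewer cells of a type and less RNA per cell cannot be told apart.

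The 8 factors remained expressed in every group, while most secretory genes of the adult epididymis fell: of 12, 11 fell after bilateral OD, 9 fell and 1 rose in unilateral OD, and 9 fell and 3 rose in Nell2-/- mice. After bilateral OD, all 8 differed from the sham-operated control at an adjusted p under 0.05, 6 higher and 2 (Runx1 and Cebpb) lower, where 61.7% of all genes tested differed, 30.4% higher and 31.4% lower. In unilateral OD, 6 of 8 differed between the ipsilateral and contralateral sides, 2 higher and 4 lower, against 34.6% of all genes, 16% higher and 18.6% lower, and without contralateral replicate 1 it was 4 of 8. In Nell2-/- mice, 6 of 8 differed from WT, again 2 higher and 4 lower, against 36.3%, 17.8% higher and 18.6% lower. None of the factors other than Lhx1 was below 3.09 FPKM in any library. In bilateral OD the secretory gene Lcn8, a lipocalin of the caput lumen, was at 1.39 FPKM against 16937 FPKM in the sham-operated control. Lcn8 does not stand for its list, since the 12 secretory genes still summed to 3599.73 to 4074.93 FPKM after bilateral OD. Remaining FPKM therefore does not set the factors apart from the secretory genes. The median log2 fold change of the 8 factors was 0.67 after bilateral OD, -0.13 in unilateral OD and -0.13 in Nell2-/- mice, and that of the 12 secretory genes was -5.36, -3.75 and -5.03.

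**Figure D1:**
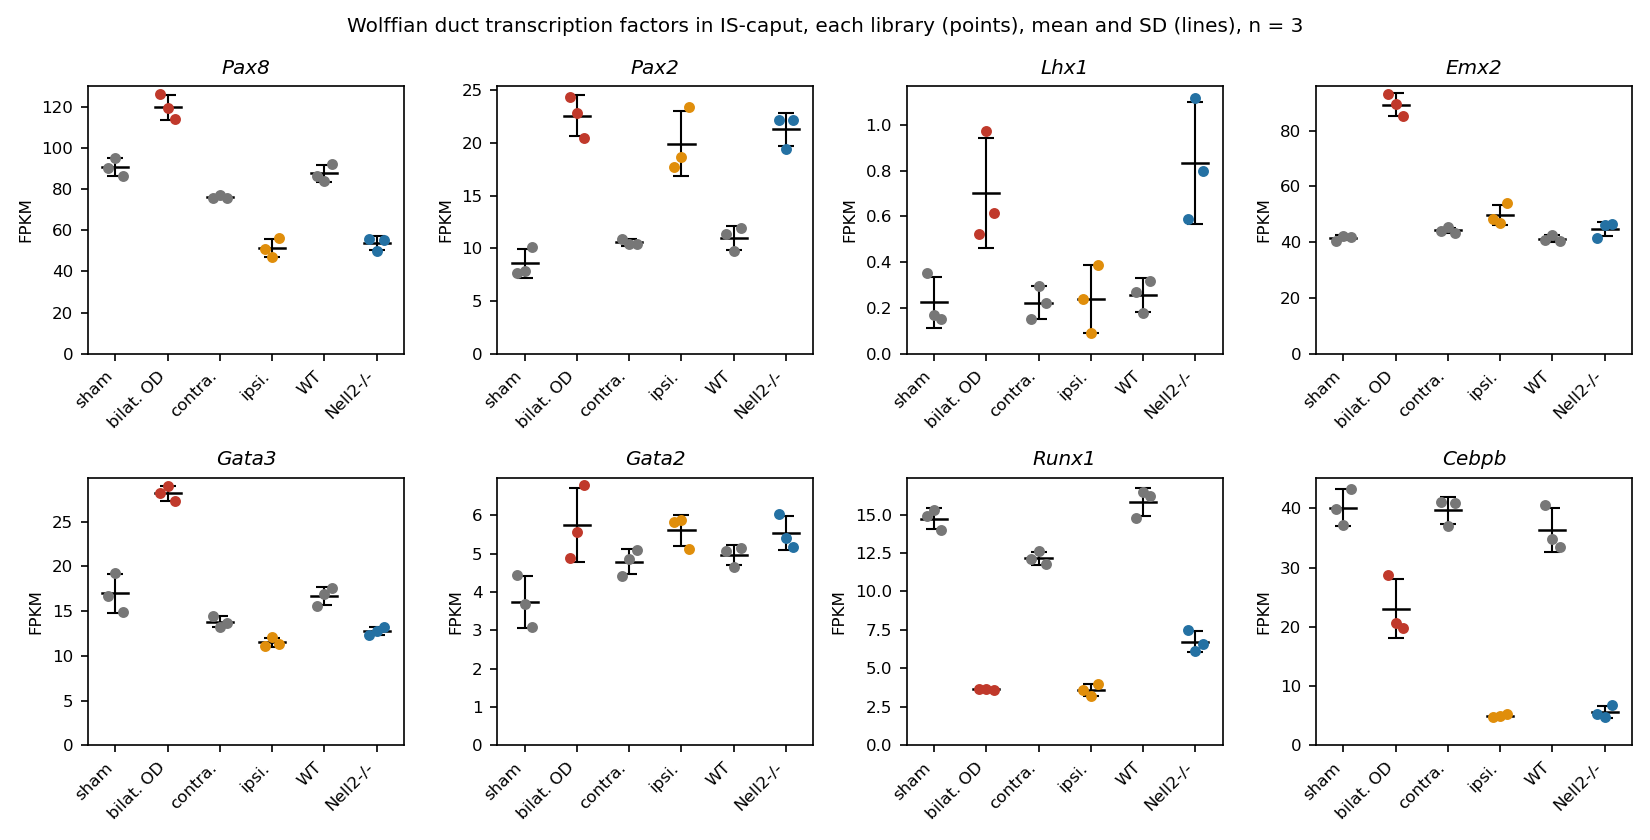
FPKM of each factor in every library (points), with the group mean and SD (lines, n = 3); each panel starts at 0 and has its own scale. Pax8, Emx2 and Gata3 are highest after bilateral OD, Pax2 is raised in all 3 groups that lost testicular input, and Cebpb lies between 4.70 and 6.78 FPKM on the ipsilateral side and in Nell2-/- mice but between 19.8 and 28.7 FPKM after bilateral OD.

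Pax8 (chr2:24420551-24475599, minus strand, GRCm38.p6), one of the paired-domain factors that start the duct, was the most abundant of the 8 by mean FPKM and was higher after bilateral OD as deposited, though not relative to the epithelial genes, and lower in unilateral OD and in Nell2-/- mice. Its level was 90.2, 95.3 and 86.5 FPKM in the sham-operated control and 126, 119 and 114 FPKM after bilateral OD. On the contralateral side it was 75.6, 77.1 and 75.7 FPKM and on the ipsilateral side 50.8, 47.2 and 56.2 FPKM. In WT it was 86.7, 84.2 and 92.3 FPKM and in Nell2-/- mice 56.0, 49.9 and 55.3 FPKM. No treated library overlapped its own controls in these 3 comparisons. Pax8 was 1.32-fold higher after bilateral OD (log2 fold change 0.40 ± 0.06 SE, limma adjusted p = 3.8e-05), lower on the ipsilateral side (-0.57 ± 0.06, adjusted p = 2.2e-06) and lower in Nell2-/- mice (-0.71 ± 0.06, adjusted p = 1.2e-07). The rise after bilateral OD depended on the scaling, since relative to the epithelial genes it was -0.02 (adjusted p = 0.84). That scaling uses the mean of the epithelial list, whose median log2 fold change was 0.14, with 10 genes called higher and 6 lower. Relative to the median of all genes the Pax8 change was 0.38 under either scaling, which follows from subtracting that median. The change in bilateral OD exceeded that in unilateral OD by 0.97 ± 0.09 (adjusted p = 2.1e-07) and that in Nell2-/- mice by 1.11 ± 0.09 (adjusted p = 3.2e-08). The unilateral and Nell2-/- changes differed by 0.14 ± 0.09 (adjusted p = 0.49).

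Pax2 (chr19:44746601-44838269, plus strand), its close paralog, rose in every setting. It measured 7.71, 7.89 and 10.1 FPKM in the sham-operated control and 24.4, 22.9 and 20.5 FPKM after bilateral OD. The contralateral libraries held 10.9, 10.4 and 10.4 FPKM and the ipsilateral libraries 17.7, 18.7 and 23.4 FPKM. The WT libraries held 11.4, 9.74 and 11.9 FPKM and the Nell2-/- libraries 22.2, 19.5 and 22.2 FPKM. All 9 libraries without normal testicular input lay above all 9 control libraries. The log2 fold change was 1.40 ± 0.12 in bilateral OD (2.64-fold, adjusted p = 1.1e-08), 0.90 ± 0.12 in unilateral OD (1.89-fold, adjusted p = 9.6e-06) and 0.95 ± 0.12 in Nell2-/- mice (1.93-fold, adjusted p = 3.9e-06), and its direction held under each scaling tried. The bilateral change was larger than the unilateral change by 0.50 ± 0.16 (adjusted p = 0.023) and than the Nell2-/- change by 0.45 ± 0.16 (adjusted p = 0.034), but under scaling by the epithelial genes these differences were 0.10 (adjusted p = 0.63) and 0.15 (adjusted p = 0.45).

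The Pax paralogs moved in opposite directions in unilateral OD and Nell2-/- mice, and both rose after bilateral OD as deposited; library scaling cancels in the ratio of their levels within a library. The Pax2 level was 0.083 to 0.117 of the Pax8 level in the sham-operated control, 0.135 to 0.144 on the contralateral side and 0.116 to 0.131 in WT. It was 0.180 to 0.193 after bilateral OD, 0.349 to 0.417 on the ipsilateral side and 0.390 to 0.401 in Nell2-/- mice. The ratio therefore lay above its own controls in each setting, and was highest where lumicrine input was lost with a testis still present.

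**Figure D2:**
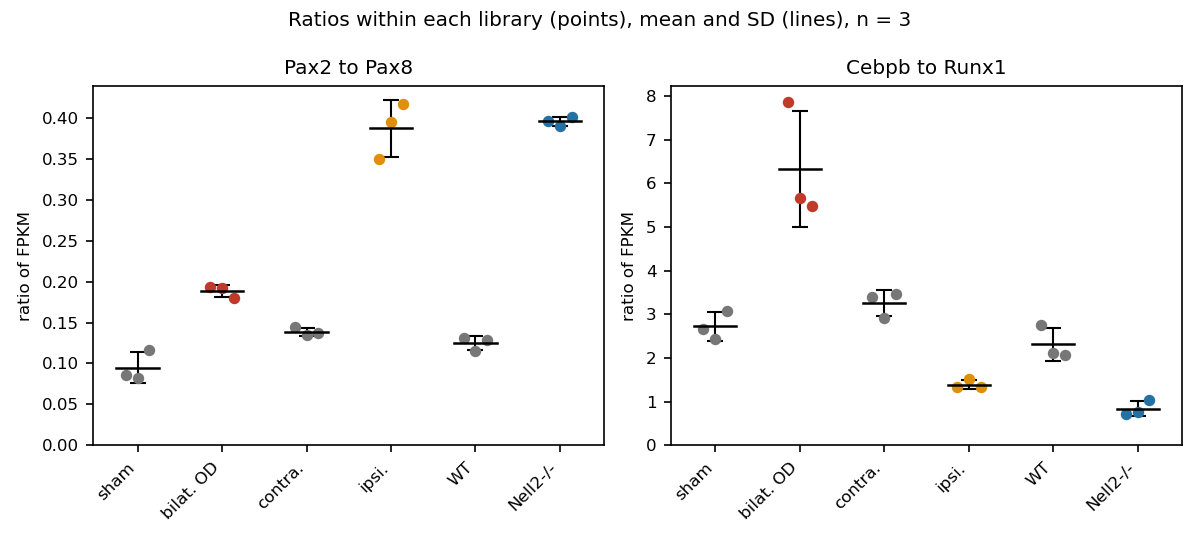
Ratios of FPKM within each library (points), with the group mean and SD (lines, n = 3), for Pax2 to Pax8 on the left and Cebpb to Runx1 on the right. The Pax2 to Pax8 ratio is 0.349 to 0.417 in the ipsilateral and Nell2-/- libraries and at most 0.193 elsewhere, and the Cebpb to Runx1 ratio is 5.49 to 7.87 after bilateral OD and at most 1.52 in the ipsilateral and Nell2-/- libraries.

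Lhx1 (chr11:84517975-84525534, minus strand), which acts beside the PAX factors in the nascent duct, was detected at a low level. It was 0.353, 0.168 and 0.154 FPKM in the sham-operated control and 0.522, 0.975 and 0.613 FPKM after bilateral OD. It was 0.153, 0.297 and 0.22 FPKM on the contralateral and 0.241, 0.091 and 0.388 FPKM on the ipsilateral side, and 0.271, 0.176 and 0.32 FPKM in WT and 0.587, 1.12 and 0.797 FPKM in Nell2-/- mice. The bilateral OD and Nell2-/- libraries lay above their controls, and the sides of unilateral OD overlapped. The log2 fold change was 1.32 ± 0.36 in bilateral OD (adjusted p = 0.0042), 1.38 ± 0.36 in Nell2-/- mice (adjusted p = 0.0056) and -0.01 ± 0.36 in unilateral OD (adjusted p = 1.0). The bilateral change exceeded the unilateral change by 1.32 ± 0.51 (adjusted p = 0.0497), a call lost in 14 of 21 alternatives. Its divergent neighbour Lhx1os, 124 bases away on the opposite strand, was at most 1.85 FPKM, with means of 0.791 FPKM in WT and 1.64 FPKM in Nell2-/- mice.

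Emx2 (chr19:59458690-59465357, plus strand), the factor that keeps the duct epithelium, lay between 40.3 and 54.0 FPKM in every group but bilateral OD. It was 40.5 to 42.3 FPKM in the sham-operated control, 43.4 to 45.3 FPKM on the contralateral side, 47.0 to 54.0 FPKM on the ipsilateral side, 40.3 to 42.7 FPKM in WT and 41.7 to 46.4 FPKM in Nell2-/- mice. After bilateral OD it was 93.2, 89.6 and 85.1 FPKM. Its log2 fold change after bilateral OD was 1.10 ± 0.06 (2.14-fold, adjusted p = 2.5e-11; 0.68 relative to the epithelial genes and 1.67 under TPM scaling, called in both), against 0.17 ± 0.06 in unilateral OD (adjusted p = 0.032) and 0.12 ± 0.06 in Nell2-/- mice (adjusted p = 0.13). The bilateral change exceeded the others by 0.93 ± 0.08 (adjusted p = 8.5e-08) and 0.98 ± 0.08 (adjusted p = 3.5e-08). The small unilateral call was lost without contralateral replicate 1 (adjusted p = 0.076), without contralateral replicate 3 (0.094) and without ipsilateral replicate 3, where the value was 0.11 (adjusted p = 0.17), and relative to the epithelial genes (0.14, adjusted p = 0.13). The antisense gene Emx2os overlaps Emx2 exons by 264 bases and the strand setting of the counting was not stated; Emx2os was 0.617 to 2.375 FPKM and Emx2 was 31.9 to 68.1 times as high in each library.

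Gata3 (chr2:9857078-9887953, minus strand), needed for the duct to extend, followed the pattern of Pax8. It was 14.9 to 19.3 FPKM in the sham-operated control and 28.2, 29 and 27.3 FPKM after bilateral OD. It was 13.3 to 14.5 FPKM on the contralateral and 11.1 to 12.1 FPKM on the ipsilateral side, and 15.6 to 17.6 FPKM in WT against 12.3 to 13.3 FPKM in Nell2-/- mice. The log2 fold change was 0.73 ± 0.08 in bilateral OD (adjusted p = 2.8e-07; 0.31 with adjusted p = 0.011 relative to the epithelial genes and 1.31 under TPM scaling), -0.26 ± 0.08 in unilateral OD (adjusted p = 0.015) and -0.38 ± 0.08 in Nell2-/- mice (adjusted p = 8.4e-04). The bilateral change exceeded the unilateral by 0.995 ± 0.11 (adjusted p = 1.5e-06) and the Nell2-/- change by 1.12 ± 0.11 (adjusted p = 3.0e-07). The unilateral call was lost under TPM scaling (-0.17, adjusted p = 0.16), without contralateral replicate 1 (adjusted p = 0.063) and without ipsilateral replicate 1 (adjusted p = 0.057). Clear cell genes moved as well: the sum of 7 such genes, led by Foxi1, the master factor of proton-secreting cells, was 123 to 124 FPKM in the sham-operated and 318 to 389 FPKM in the bilateral OD libraries, 110.4 to 119.7 FPKM contralaterally against 146 to 171 FPKM ipsilaterally. It was 120.3 to 125 FPKM in WT against 161 to 173 FPKM in Nell2-/- mice. That sum was higher in each setting than in its controls, but its genes did not all move together. Of the 7, 6 were called higher and 0 lower after bilateral OD, beside 61.7% of all genes called. In unilateral OD and in Nell2-/- mice alike, 5 were higher and 1 lower, beside 34.6% and 36.3% of all genes. The clear cell gene Atp6v0d2 had log2 fold changes of 0.61, -0.34 and -0.42 in bilateral OD, unilateral OD and Nell2-/- mice. The part of clear cells in the Gata3 values was not tested.

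Gata2 (chr6:88193891-88207032, plus strand), a factor also of mast and endothelial cells, was low, and its highest group mean was 1.54 times its lowest, the smallest such ratio of the 8. It was 4.44, 3.69 and 3.09 FPKM in the sham-operated control and 4.88, 5.58 and 6.8 FPKM after bilateral OD, and these groups did not overlap. The other 4 groups spanned 4.43 to 6.03 FPKM. The log2 fold change was 0.61 ± 0.13 after bilateral OD (adjusted p = 5.8e-04), 0.22 ± 0.13 in unilateral OD (adjusted p = 0.21) and 0.15 ± 0.13 in Nell2-/- mice (adjusted p = 0.40). The bilateral call was lost under scaling by the epithelial genes (0.19, adjusted p = 0.33). The 7 mast cell genes summed to 2.60 to 3.87 FPKM in the sham-operated and 8.23 to 25.7 FPKM in the bilateral OD libraries, and 8 endothelial genes to 34.4 to 46.4 and 41.1 to 49.8 FPKM. The mast cell sum was 2.82 to 5.48 FPKM on the contralateral and 6.49 to 8.07 FPKM on the ipsilateral side, and 0.865 to 2.16 FPKM in WT and 0.710 to 3.63 FPKM in Nell2-/- mice. The endothelial sum was lower on the ipsilateral side (38.0 to 39.0 against 48.9 to 58.3 FPKM) and in Nell2-/- mice (23.4 to 30.0 against 50.6 to 51.1 FPKM); their part in the Gata2 values was not tested.

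Runx1 (chr16:92601466-92826074, minus strand) fell in all 3 settings. It was 14.9, 15.3 and 14.0 FPKM in the sham-operated control and 3.65, 3.66 and 3.61 FPKM after bilateral OD. It was 12.1, 12.6 and 11.8 FPKM on the contralateral and 3.59, 3.22 and 3.96 FPKM on the ipsilateral side. It was 14.8, 16.5 and 16.2 FPKM in WT and 7.47, 6.12 and 6.58 FPKM in Nell2-/- mice. The log2 fold change was -1.99 ± 0.08 in bilateral OD (adjusted p = 1.3e-12), -1.74 ± 0.08 in unilateral OD (adjusted p = 3.3e-11) and -1.23 ± 0.08 in Nell2-/- mice (adjusted p = 3.0e-09), and no treated library overlapped its controls. The fall was deeper in bilateral OD than in Nell2-/- mice by 0.76 ± 0.12 on the log2 scale (adjusted p = 5.8e-05), a call lost under TPM scaling (-0.27, adjusted p = 0.088). It was deeper in unilateral OD than in Nell2-/- mice by 0.51 ± 0.12 (adjusted p = 0.019), the only call among the 8 factors in the last contrast, where 4.65% of all genes were called, 2.27% lower and 2.38% higher. That call was lost without contralateral replicate 2 (adjusted p = 0.054), ipsilateral replicate 2 (0.051), WT replicate 1 (0.056) or Nell2-/- replicate 1 (0.054), and under scaling by the epithelial genes (-0.41, adjusted p = 0.15). The bilateral and unilateral changes differed by -0.25 ± 0.12 (adjusted p = 0.11), a difference that turned to 0.23 (adjusted p = 0.16) under TPM scaling and was -0.65 (adjusted p = 0.0015) relative to the epithelial genes. Macrophages also express Runx1, and the sum of 10 macrophage genes was 300.1 to 376 FPKM in the bilateral OD and 227 to 248 FPKM in the sham-operated libraries. It was 244 to 265 FPKM on the ipsilateral and 203 to 235 FPKM on the contralateral side, and 161 to 183 FPKM in Nell2-/- and 198 to 223 FPKM in WT mice. Without Lyz2, the most abundant of the 10, the sum was 194 to 225 FPKM after bilateral OD against 161 to 186 FPKM in the sham-operated control. The sides of unilateral OD then overlapped, at 163 to 184 FPKM ipsilaterally and 141 to 171 FPKM contralaterally. In Nell2-/- mice it was 128 to 146 FPKM against 153 to 167 FPKM in WT. The part of macrophages in the Runx1 values was not tested.

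Cebpb (chr2:167688915-167690432, plus strand) fell furthest of the 8 in unilateral OD and in Nell2-/- mice, and fell less after bilateral OD. It was 39.9, 37.1 and 43.3 FPKM in the sham-operated control and 28.7, 20.7 and 19.8 FPKM after bilateral OD. It was 41, 37 and 41 FPKM on the contralateral and 4.77, 4.87 and 5.25 FPKM on the ipsilateral side. It was 40.6, 34.9 and 33.5 FPKM in WT and 5.34, 4.7 and 6.78 FPKM in Nell2-/- mice. The log2 fold change was -2.97 ± 0.13 in unilateral OD (adjusted p = 1.7e-11) and -2.69 ± 0.13 in Nell2-/- mice (adjusted p = 4.8e-11) against -0.81 ± 0.13 in bilateral OD (adjusted p = 5.2e-05). The changes differed by 2.16 ± 0.19 between bilateral and unilateral OD (adjusted p = 1.0e-07) and by 1.87 ± 0.19 between bilateral OD and Nell2-/- mice (adjusted p = 4.6e-07), and the unilateral and Nell2-/- changes by -0.29 ± 0.19 (adjusted p = 0.48). After bilateral OD the call was lost under TPM scaling (-0.24, adjusted p = 0.086). Relative to the median of all genes the change was -0.83 as deposited and -0.80 under TPM, values that are close by construction. Tmem189, which lies on the opposite strand and overlaps the Cebpb gene by 908 bases with 0 exon bases in common, was at 20.1 to 89.5 FPKM. The 9 immediate early genes rise with handling stress. After bilateral OD they summed to 193 to 240 FPKM against 135 to 144 FPKM in the sham-operated control. On the ipsilateral side they summed to 84.3 to 111 FPKM against 122 to 144 FPKM on the contralateral side. In Nell2-/- mice the sum was 189 to 370.3 FPKM against 218 to 299.8 FPKM in WT. The part of these genes in the Cebpb values was not tested.

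The promoter of Cebpb and the promoters of Runx1 and Pax2 are printed because Cebpb and Runx1 fell furthest of the 8 and Pax2 rose in all 3 settings. Each run holds the 250 bases before a RefSeq start (GRCm38.p6), 5′ to 3′ on the gene's strand, with motif matches in capitals. The runs are Cebpb (chr2:167688665-167688914), Runx1 distal (chr16:92826075-92826324), Runx1 proximal (chr16:92697330-92697579) and the most upstream Pax2 start (chr19:44746351-44746600).
Cebpb: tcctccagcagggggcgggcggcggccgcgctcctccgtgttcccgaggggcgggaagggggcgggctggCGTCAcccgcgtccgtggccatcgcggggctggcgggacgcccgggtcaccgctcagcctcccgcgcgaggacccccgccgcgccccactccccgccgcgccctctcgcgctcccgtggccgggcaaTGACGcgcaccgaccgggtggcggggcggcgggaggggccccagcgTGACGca
Runx1 distal: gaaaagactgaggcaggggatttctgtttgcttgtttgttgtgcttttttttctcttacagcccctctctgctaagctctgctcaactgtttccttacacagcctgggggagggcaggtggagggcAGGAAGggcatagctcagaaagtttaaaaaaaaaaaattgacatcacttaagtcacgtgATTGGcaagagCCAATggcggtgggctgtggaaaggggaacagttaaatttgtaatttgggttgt
Runx1 proximal: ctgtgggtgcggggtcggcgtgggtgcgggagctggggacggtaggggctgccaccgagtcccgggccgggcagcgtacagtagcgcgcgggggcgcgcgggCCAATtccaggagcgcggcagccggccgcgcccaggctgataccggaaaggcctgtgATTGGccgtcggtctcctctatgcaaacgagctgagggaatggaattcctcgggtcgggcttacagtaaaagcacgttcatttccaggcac
Pax2: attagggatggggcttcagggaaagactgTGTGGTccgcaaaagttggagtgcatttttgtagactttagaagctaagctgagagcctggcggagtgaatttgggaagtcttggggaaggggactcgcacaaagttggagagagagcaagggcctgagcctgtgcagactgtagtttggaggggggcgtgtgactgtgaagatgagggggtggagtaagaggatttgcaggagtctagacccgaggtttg
Searched on both strands were 10 motifs. Those of signal-responsive factors were AGGAAG for the ETS family, TGANTCA for the AP-1 complex, and for the cAMP response element its core TGACG and the full palindrome TGACGTCA, which contains that core. Those of lineage and hormone factors were AGATAA for the zinc-finger family of Gata2, TGTGGT for the runt-domain family, TTGCNNAA for the C/EBP family and AGAACA for the androgen receptor. Those of the general promoter were CCAAT for the box of that name and TATAAA for the other classical promoter box, named TATA. The motifs and the promoters shown were chosen with results known. Positions are those of the leftmost base counted back from the start. The Cebpb run holds the TGACG core at 3 places, at -180 on the antisense strand and at -53 and -7; 17.8% of 32851 promoters hold it, and the GC content of this run is 81.6% against a median of 52.4%. The distal Runx1 run holds 1 ETS match at -124, a motif found in 29.5% of promoters, and CCAAT at -65 on the antisense strand and at -54, found in 33.8% of promoters. The proximal Runx1 run holds CCAAT at -148 and, on the antisense strand, at -91. The Pax2 run holds 1 RUNX match at -221, found in 14% of promoters. Of the other starts, the Pax8 run held 1 ETS match at -210, 1 C/EBP match at -100 (9.56% of promoters) and CCAAT at -57, the Lhx1 and Emx2 runs held 1 TGACG core each, at -50 and -73, and 1 CCAAT each, at -68 and -21, the second Gata2 start held CCAAT at -83 and -45, and the remaining 4 starts, of Gata3, Gata2 and Pax2, held no match. The full element, AP-1, GATA, androgen receptor and TATA motifs, found in 1.55%, 6.75%, 9.99%, 16.1% and 12.4% of promoters, had no match at the 12 starts. A match describes letters and not a bound site.

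**Figure D3:**
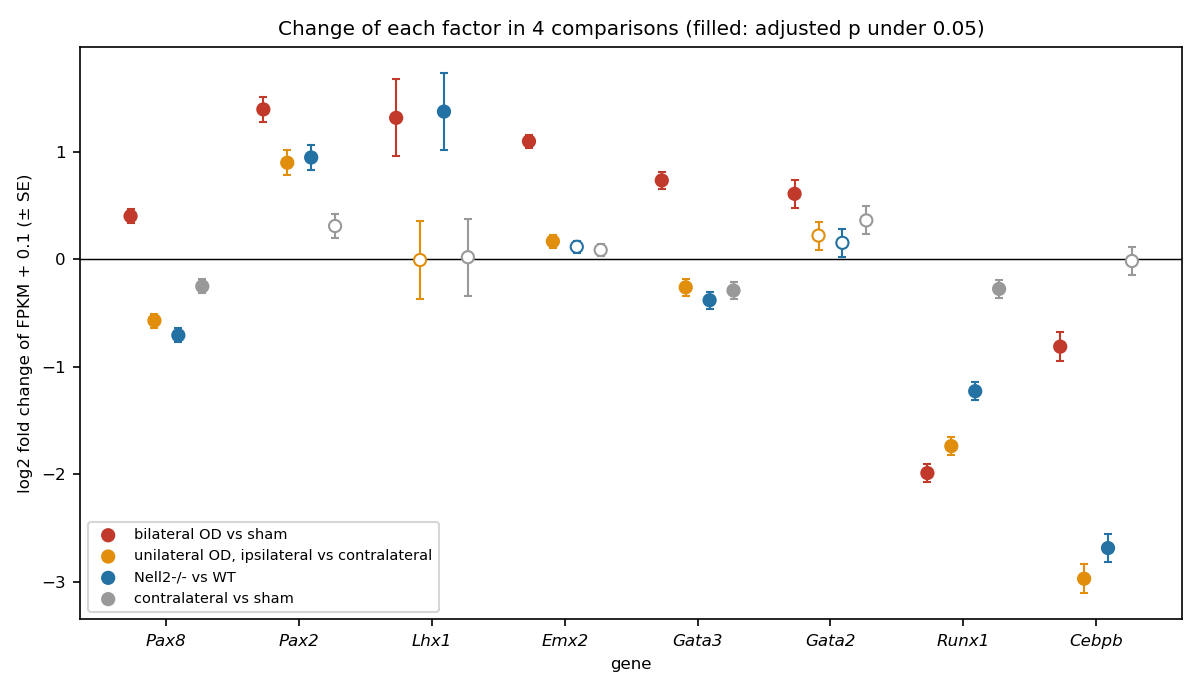
Log2 fold change of FPKM + 0.1 (± SE) of each factor in 4 comparisons; filled points have an adjusted p under 0.05. The bilateral OD points lie above the unilateral OD and Nell2-/- points for Pax8, Pax2, Emx2, Gata3, Gata2 and Cebpb, and below them for Runx1. The differences for Gata2, and that between bilateral and unilateral OD for Runx1, were not called.

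The contralateral side, which served as the control of unilateral OD, differed from the sham-operated control in 3 factors. Pax8 (-0.25 ± 0.06, adjusted p = 0.018), Gata3 (-0.29 ± 0.08, adjusted p = 0.022) and Runx1 (-0.28 ± 0.08, adjusted p = 0.042) were lower, 3 of 8 against 12.6% of all genes, 5.99% lower and 6.65% higher. Cebpb was 0.99-fold with a log2 fold change of -0.02 ± 0.13 (adjusted p = 0.97). The 3 calls were not stable: leaving out sham replicate 2 or contralateral replicate 3 left 0 of them, and leaving out sham replicate 3 gave 4. Under TPM scaling 3 factors were called, but these were Pax2 (0.47, adjusted p = 0.0073), Emx2 (0.25, adjusted p = 0.025) and Gata2 (0.52, adjusted p = 0.014), all higher. This comparison shares its libraries with the others, so their values cannot be taken as independent of it.

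The 3 differences between changes were computed for each factor. Bilateral OD differed from unilateral OD in 6 of 8 factors, Pax8, Pax2, Lhx1, Emx2, Gata3 and Cebpb, all with the higher value after bilateral OD, against 37.4% of all genes, 18.1% higher; without sham replicate 2 it was 4, since the Pax2 (adjusted p = 0.058) and Lhx1 (adjusted p = 0.099) calls were lost. Bilateral OD differed from Nell2-/- in 6 of 8, 5 higher and Runx1 lower, against 44.6%, 21.9% higher and 22.7% lower. Unilateral OD and Nell2-/- differed in 1 of 8. Bilateral OD enters the first 2 contrasts and so they are not independent of each other.

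Of 30 further genes of the duct network, 28 were tested. After bilateral OD 13 were higher and 6 lower, in unilateral OD 9 and 4, and in Nell2-/- mice 6 and 5, beside 61.7%, 34.6% and 36.3% of all genes called in either direction. Cdh16, an epithelial cadherin known as a PAX target in kidney and thyroid, rose together with Pax2. It was 93.7 to 114 FPKM in the sham-operated and 397 to 447 FPKM in the bilateral OD libraries, with mean levels of 115 and 248 FPKM on the contralateral and ipsilateral sides and of 125 and 259 FPKM in WT and Nell2-/- mice. The log2 fold changes were 2.05, 1.10 and 1.05. Ctnnb1, encoding beta-catenin, fell by 0.24, 0.51 and 0.55 on the log2 scale, the first of these turning to 0.34 under TPM scaling.

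The receptor RET and its co-receptor GFRA1, which carry the GDNF signal in the duct tip, moved differently. Ret was 10.6, 11.2 and 9.91 FPKM in the sham-operated control and 1.31, 1.67 and 1.72 FPKM after bilateral OD, 9.17, 10.7 and 9.08 FPKM on the contralateral and 0.484, 0.400 and 0.574 FPKM on the ipsilateral side, and 9.481, 9.981 and 9.997 FPKM in WT and 0.688, 1.07 and 0.470 FPKM in Nell2-/- mice. Its log2 fold change was -2.68 ± 0.19, -4.06 ± 0.19 and -3.62 ± 0.19 in the 3 settings. Gfra1 fell after bilateral OD, from a mean of 121 to 48.6 FPKM (-1.31 ± 0.09, adjusted p = 5.0e-10), and rose in unilateral OD, from 140.3 to 232 FPKM (0.72 ± 0.09, adjusted p = 3.6e-06), and in Nell2-/- mice, from 122 to 202 FPKM (0.73 ± 0.09, adjusted p = 2.5e-06), and its bilateral change differed from its unilateral change by -2.03 ± 0.12 (adjusted p = 5.7e-10). The ligand gene Gdnf was below 1 FPKM and fell in all 3 settings (log2 -2.76, -1.26 and -1.19). Fgf8 was listed at 0 in the sham-operated and WT libraries and at a mean of 0.583 FPKM after bilateral OD. Tfap2b, which acts in the distal nephron, was higher on the contralateral side than in the sham-operated control, at 7.53 against 3.53 FPKM (1.17 ± 0.26, adjusted p = 0.0093).

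**Figure D4:**
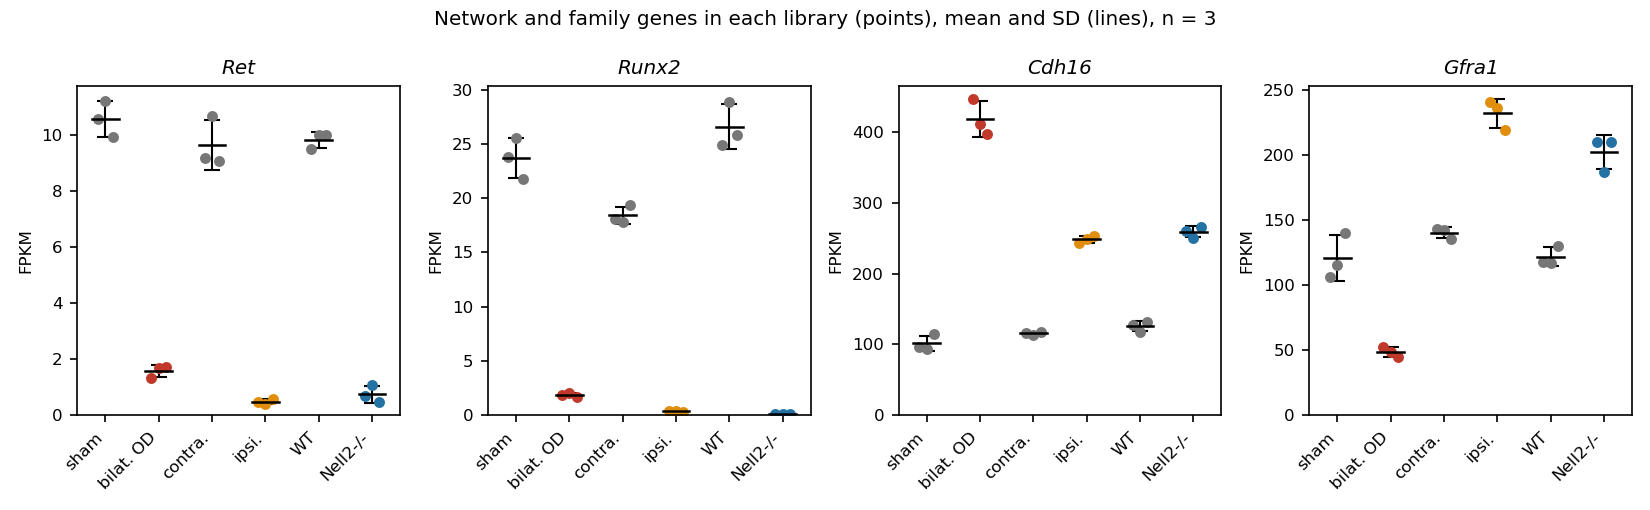
FPKM of Ret, Runx2, Cdh16 and Gfra1 in each library (points), with the group mean and SD (lines, n = 3), each panel starting at 0. Ret and Runx2 are low in all 3 groups that lost testicular input, Cdh16 is high in all 3, and Gfra1 is low after bilateral OD but high on the ipsilateral side and in Nell2-/- mice.

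Of 25 paralogs of the 8 factors, 11 were tested. Those called were 5 higher and 3 lower after bilateral OD, 1 and 4 in unilateral OD and 1 and 4 in Nell2-/- mice, beside 61.7%, 34.6% and 36.3% of all genes. The 5 became 3 without bilateral OD replicate 2 or 3, and the 1 higher in Nell2-/- mice became 0 without WT replicate 1 or 2 or Nell2-/- replicate 2. Runx2, the runt-domain factor of bone, was more abundant than Runx1 in the controls and fell further. It was 23.8, 25.5 and 21.8 FPKM in the sham-operated control and 1.89, 2.03 and 1.71 FPKM after bilateral OD, 18.1, 17.8 and 19.3 FPKM on the contralateral and 0.393, 0.384 and 0.294 FPKM on the ipsilateral side, and 24.9, 28.9 and 25.9 FPKM in WT and 0.150, 0.118 and 0.0902 FPKM in Nell2-/- mice. The means were 12.6-fold lower after bilateral OD, 51.6-fold lower on the ipsilateral side and 222-fold lower in Nell2-/- mice. Cebpa, the C/EBP family member of fat and liver, rose after bilateral OD (0.41 ± 0.08, adjusted p = 4.1e-04; -0.01 relative to the epithelial genes) and fell in unilateral OD (-0.54 ± 0.08, adjusted p = 8.3e-05) and in Nell2-/- mice (-1.85 ± 0.08, adjusted p = 9.0e-12). Cebpg, a C/EBP partner, fell by 0.28, 0.62 and 0.84 on the log2 scale (0.29 in place of the first under TPM scaling), and Cebpd had log2 fold changes of 0.05, -0.30 and -0.12 (adjusted p = 0.82, 0.17 and 0.60). Lhx4, a low LIM-homeodomain gene, was at means of 1.04 FPKM in the sham-operated control and listed at 0 after bilateral OD, 1.30 against 0.391 FPKM between the sides and 0.681 against 0.115 FPKM in WT and Nell2-/- mice, and Lhx6 was higher on the ipsilateral side (0.774 against 0.241 FPKM, adjusted p = 0.0016).

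All 20 cofactors were tested, of which 12 were higher and 5 lower after bilateral OD, 4 and 7 in unilateral OD and 3 and 8 in Nell2-/- mice, beside 61.7%, 34.6% and 36.3% of all genes. Cbfb, the subunit that stabilises RUNX proteins on DNA, fell with the Runx genes (log2 fold changes of -0.9995, -0.971 and -1.153), with means of 32.8 and 16.3 FPKM in the sham-operated and bilateral OD groups, 27.3 and 13.9 FPKM on the contralateral and ipsilateral sides and 26.8 and 12.0 FPKM in WT and Nell2-/- mice. Ldb1, the bridge on which LIM-homeodomain and GATA proteins assemble, rose by log2 fold changes of 0.75, 0.37 and 0.25, and Ssbp4, a protein that binds LDB proteins, fell by 1.54, 0.88 and 0.97. Lmo4, a LIM-only protein of the same complexes, rose after bilateral OD (1.23 ± 0.07, adjusted p = 4.0e-11) and had log2 fold changes of 0.07 in unilateral OD (adjusted p = 0.46) and 0.01 in Nell2-/- mice (adjusted p = 0.96).

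General epithelial genes stayed expressed in every group. All 22 epithelial genes were tested, and 10 were higher and 6 lower after bilateral OD, 6 and 7 in unilateral OD and 8 and 6 in Nell2-/- mice, beside 61.7%, 34.6% and 36.3% of all genes called, with median log2 fold changes of 0.14, -0.08 and 0.04 over the list and 0.02, 0.02 and 0.02 over all genes. The counts after bilateral OD moved with the scaling. Relative to the epithelial genes they were 11 higher and 6 lower of the duct network, 1 and 3 of the paralogs, 4 and 7 of the cofactors and 6 and 11 of the epithelial genes. Under TPM scaling they were 22 and 3, 8 and 2, 16 and 3, and 19 and 2. The calls among all genes tested moved as well. After bilateral OD they were 5253 higher and 5429 lower as deposited, and 2289 and 8650 relative to the epithelial genes. Under TPM scaling they were 10370 higher and 2315 lower. Krt18, a keratin of simple epithelium, was at 406 FPKM in the sham-operated control and 396 FPKM after bilateral OD (adjusted p = 0.59). Its partner Krt8 fell after bilateral OD, from 248 to 179 FPKM (-0.47 ± 0.05, adjusted p = 2.2e-07; 0.10 under TPM scaling), and was 246 and 237 FPKM on the contralateral and ipsilateral sides (adjusted p = 0.43). Epcam, an epithelial adhesion molecule, rose after bilateral OD from 275 to 344 FPKM (adjusted p = 5.1e-05; -0.10 relative to the epithelial genes) and Spint2, a protease inhibitor of epithelia, rose in all 3 settings (log2 0.39, 0.39 and 0.46, the first at -0.03 relative to the epithelial genes). Cdh1, encoding E-cadherin and chosen after its values were seen, was at 73.1 and 78.3 FPKM in the sham-operated control and after bilateral OD (adjusted p = 0.19), with log2 values of 0.10 as deposited, 0.67 under TPM scaling and -0.32 relative to the epithelial genes. It fell in Nell2-/- mice from 75.0 to 60.1 FPKM (-0.32 ± 0.06, adjusted p = 5.6e-04). Among the secretory genes, Gpx5, an antioxidant enzyme of the caput lumen under androgen control, fell after bilateral OD from 42207 to 821 FPKM and was at 34378 and 29223 FPKM on the contralateral and ipsilateral sides (adjusted p = 0.053), and rose in Nell2-/- mice from 33296 to 39877 FPKM (adjusted p = 0.036).

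**Figure D5:**
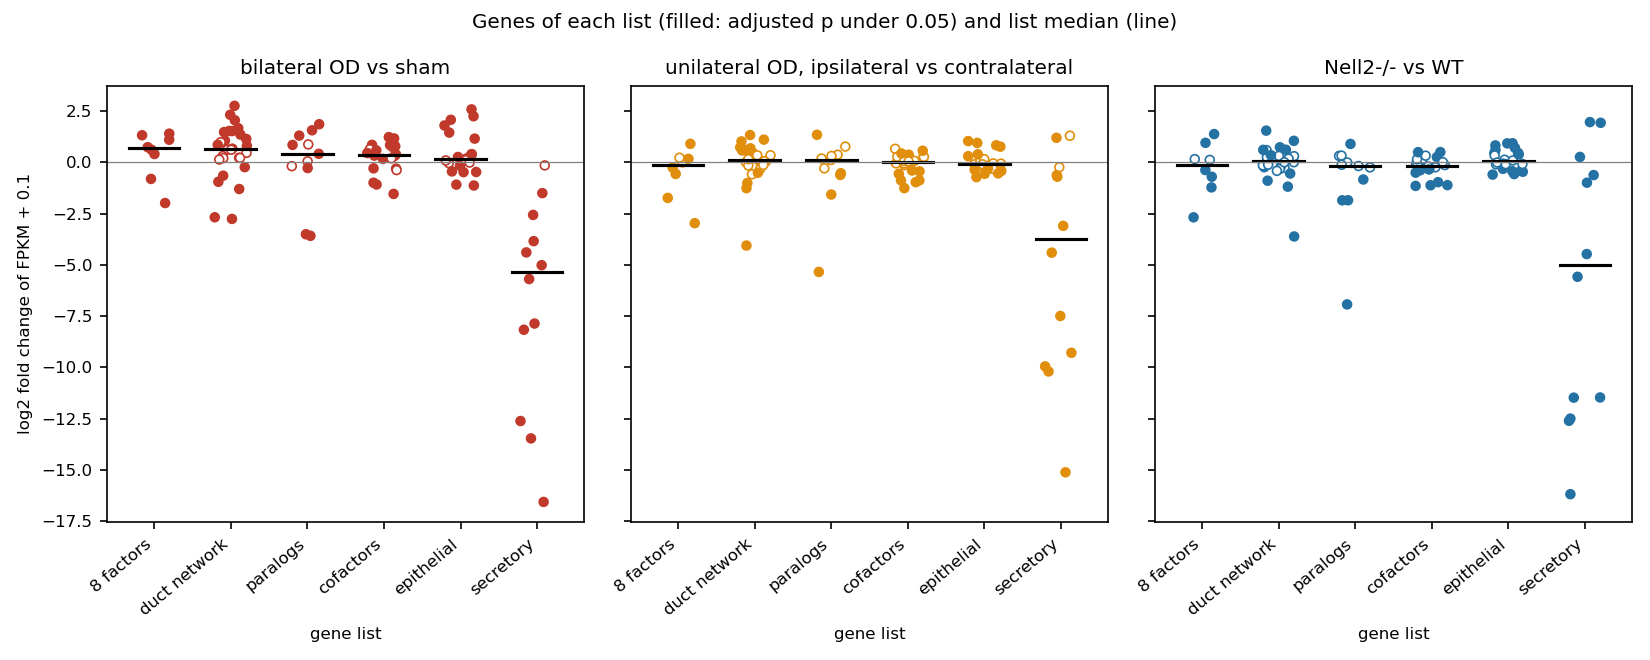
Log2 fold change of FPKM + 0.1 of the genes of each list in 3 comparisons, with the list median as a line; filled points have an adjusted p under 0.05. The medians of the factors, the duct network, the paralogs, the cofactors and the epithelial genes lie between -0.18 and 0.67, and those of the secretory genes between -5.36 and -3.75.

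Other cell types moved in part of the libraries. After bilateral OD the summed level was higher for 12 lymphocyte genes (13.3 to 17.8 against 4.56 to 7.23 FPKM), 7 ciliated cell genes (43.3 to 66.9 against 20.8 to 23.2 FPKM) and 7 adipocyte genes (13.3 to 110.5 against 1.78 to 10.7 FPKM), and lower for 9 smooth muscle genes (251 to 332 against 1847 to 2201 FPKM), a sum led by Actg2 and at 239 to 317 against 263 to 364 FPKM without that gene. The smooth muscle sum was also lower on the ipsilateral side (501 to 659 against 1648 to 1770 FPKM) and in Nell2-/- mice (450 to 551 against 2034 to 2100 FPKM). Without Actg2 it was not lower there, at 467 to 614 against 430 to 500 FPKM and at 414 to 503 against 383 to 417 FPKM. In these 2 settings the ciliated cell sum was 21.6 to 26.0 against 15.4 to 18.9 FPKM and 20.1 to 38.7 against 19.5 to 27.2 FPKM. The lymphocyte sum was 4.41 to 7.10 against 3.25 to 4.30 FPKM and 3.46 to 5.22 against 3.67 to 4.16 FPKM. The adipocyte sum was 7.49 to 15.1 against 2.202 to 5.694 FPKM and 0.0712 to 0.444 against 0.125 to 0.679 FPKM. Bilateral OD replicate 1 stood apart, with 246 FPKM of fibroblast genes against 876 and 877 FPKM in the other 2, 84.9 FPKM of basal cell genes against 159 and 165 FPKM, and 110.5 FPKM of adipocyte genes against 13.3 and 38.4 FPKM. Without that library all 8 factors were still called after bilateral OD, and the log2 fold change was 0.36 for Pax8 and -0.98 for Cebpb. The part of these cell types in the values of the factors was not tested.

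For each factor above 1 FPKM on average, the genes most like it over the 18 libraries were found among 12937 genes by Pearson's r of log2(FPKM + 0.1), given as a description since the groups are shared. Pax8 was most like Parp8 (0.975), Mme (0.971) and Cryba4 (0.970), of which Mme encodes neprilysin and Cryba4 a crystallin at 165 to 1028 FPKM. Pax2 was most like Mthfd1l (0.981), Chdh (0.981) and Mgll (0.977), enzymes of folate, choline and lipid metabolism. Emx2 was most like Rasl11a (0.983), which went from a mean of 6.63 FPKM in the sham-operated control to 219.5 FPKM after bilateral OD, Rps6ka1 (0.982) and Sdc4 (0.981). Gata3 was most like Atp6v0d2 (0.967), a proton pump subunit on the clear cell list, Inpp1 (0.963) and Anxa11 (0.963). Gata2 was most like Ddr2 (0.888), Col4a5 (0.888) and Dmd (0.871), genes of collagen sensing, basement membrane and muscle, with lower r than the others. Runx1 was most like Mroh2a (0.985), Camk2b (0.974) and Rpl3l (0.971), the last at means of 49.1 FPKM in the sham-operated control and 0.204 FPKM after bilateral OD. Cebpb was most like the POU-domain factor Pou3f3 (0.989), Phlda1 (0.983) and Usp10 (0.982), and Phlda1 was at means of 95.9, 52.4, 76.0 and 17.7 FPKM in the sham-operated, bilateral OD, contralateral and ipsilateral groups.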

How the data were processed

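Poly(A) RNA of IS-caput epididymis was sequenced by the authors with stranded libraries and 101 bp single-end reads. Per the labels and the study's methods, reads were aligned to mm10 with TopHat2 2.1.1, and the deposited FPKM values were made with Cufflinks 2.2.1. The annotation and the strand setting are not given in the sources used here. Read counts and sequencing depth are unknown, so that no counting interval is given; the FPKM worth of 1 read, relative between libraries, ranged from 0.601 to 1.003. Groups followed the labels.

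From the FPKM, log2(FPKM + 0.1) was fitted for the 17302 genes at or above 0.1 FPKM in at least 3 of 18 libraries (7044 left out) by limma 3.58.1 in R 4.3.3, with 1 mean per group, a trended robust variance and 12 residual degrees of freedom. P-values are two-sided and, apart from those of the unequal-variance test named below, Benjamini-Hochberg adjusted over all genes tested, with 0.05 as the threshold. Fold changes on this scale understate the change of low genes. Ratios of means are of FPKM. Changes were subtracted between settings as contrasts of the same fit, which was tested on simulated data. The study's methods give 3 mice for each operated group; whether the 3 WT and 3 Nell2-/- libraries are each 1 mouse is not stated in the labels, and there p-values measure only the spread between libraries. The study's own test was a two-tailed unequal-variance test per gene, used here as an alternative. It was run on FPKM, and its p-values were not adjusted.

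The 8 factors and the gene lists were chosen with earlier results of these data known. Named were the 8 factors, up to 4 genes of highest mean FPKM in each list described, up to 4 called duct network, paralog or cofactor genes a comparison with at least a 2-fold ratio of means, and the 3 genes most like each factor. Of these, 1 gene that this rule names is not reported here. Of marker lists (epididymal secretory, epithelial, basal, clear, ciliated, smooth muscle, fibroblast, endothelial, macrophage, lymphocyte, mast, adipocyte, late germ cell and immediate early genes), sums of FPKM are given. Gene positions and promoter sequences are from RefSeq (GRCm38.p6); all 8 factors matched, with 12 starts. All 10 motifs searched are reported. Alternatives were other pseudocounts, filters, scalings, variance settings and sample sets, a replicate block, leaving out each library, and TPM scaling, which was chosen after the sums of the libraries were seen.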

Additional observations from a re-analysis of the deposited data

Results flagged for a closer look

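The change of a factor differed between settings, by the contrast of the changes in limma, in 13 cases. The bilateral OD change was above the unilateral OD change on the log2 scale by 0.972 for Pax8 (adjusted p = 2.1e-07), 0.496 for Pax2 (0.023), 1.32 for Lhx1 (0.0497), 0.93 for Emx2 (8.5e-08), 0.995 for Gata3 (1.5e-06) and 2.16 for Cebpb (1.0e-07). It was above the Nell2-/- change by 1.11 for Pax8 (3.2e-08), 0.447 for Pax2 (0.034), 0.981 for Emx2 (3.5e-08), 1.12 for Gata3 (3.0e-07) and 1.87 for Cebpb (4.6e-07), while for Runx1 the difference was -0.762 (5.8e-05). Between unilateral OD and Nell2-/- mice only Runx1 differed among the 8 factors, by -0.511 (adjusted p = 0.019). That Runx1 call was lost in 6 of 22 alternatives. The Pax2 calls were lost in 7 of 22 (against unilateral OD) and 9 of 22 (against Nell2-/- mice), and the Lhx1 call in 14 of 21. The OD and Nell2-/- libraries differ in age and come from separate experiments, and the part of either in the differences that involve Nell2-/- mice was not tested.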

How the results depend on the processing

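The unequal-variance test was judged here by its unadjusted p, a looser criterion than the adjusted p of the other alternatives. Of 1065 values of the factors under the alternatives, 943 kept their direction and their side of the threshold. Another 74 lost and 19 gained a call, and 29 reversed, 1 of them from a called value. That value was Pax8 after bilateral OD, at -0.019 under scaling by the epithelial genes. Under the same scaling Cebpb on the contralateral side against sham was 0.045, Emx2 in Nell2-/- mice -0.0032, Gata2 between bilateral and unilateral OD -0.0096 and Pax2 between unilateral OD and Nell2-/- 0.048. Under TPM scaling Lhx1 in unilateral OD was 0.053, Cebpb on the contralateral side 0.15, Runx1 between bilateral and unilateral OD 0.23 and Lhx1 between bilateral OD and Nell2-/- 0.38. Lhx1 in unilateral OD was 0.014 with a pseudocount of 1 FPKM, 0.0038 under median-ratio scaling and 0.071 in the unequal-variance test; Cebpb on the contralateral side was 0.0044 under median-ratio scaling and Lhx1 there -0.00744 in the unequal-variance test. With single libraries left out, the range was -0.32 to 0.36 for Lhx1 in unilateral OD, -0.14 to 0.29 for Lhx1 on the contralateral side, -0.0696 to 0.0409 for Cebpb on the contralateral side, -0.17 to 0.036 for Pax2 between unilateral OD and Nell2-/-, -0.0090 to 0.092 for Emx2 between unilateral OD and Nell2-/- and -0.29 to 0.21 for Lhx1 between bilateral OD and Nell2-/-. Scaling by the epithelial genes left 1232 genes and 1 factor called between the contralateral side and sham, against 2186 and 3, and 0 factors between unilateral OD and Nell2-/-, against 1. Leaving out single libraries gave 1045 to 2125 genes and 0 to 4 factors for the contralateral side and 0 to 1 factors for unilateral OD against Nell2-/-.

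Calls higher and lower were 5253 and 5429 after bilateral OD, 10370 and 2315 under TPM scaling, and 2289 and 8650 relative to the epithelial genes. They were 2775 and 3212 in unilateral OD (TPM 3770 and 2355), 1150 and 1036 on the contralateral side (TPM 2595 and 95, epithelial 1103 and 129) and 3075 and 3211 in Nell2-/- mice (TPM 3742 and 2560, epithelial 1918 and 4105). For the bilateral minus unilateral change they were 3125 and 3339 (TPM 8187 and 1380, epithelial 1089 and 6541), for unilateral minus Nell2-/- 411 and 393 (epithelial 459 and 228) and for bilateral minus Nell2-/- 3784 and 3931 (TPM 8764 and 1745, epithelial 1817 and 6084). The unequal-variance test lost the Lhx1 calls in bilateral OD and Nell2-/- mice even at its unadjusted p. Same-numbered libraries did not deviate together, so that the numbers are not taken as pairs; with the replicate number as a block 8, 6, 2 and 6 factors were called in bilateral OD, unilateral OD, contralateral side against sham and Nell2-/-, and 0 between unilateral OD and Nell2-/-. The cause was not tested in any of these.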
